A study of Mus musculus with 16 samples.

Results

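The transcripts described here are those of 10 genes of the circadian clock, measured in the hippocampus of 16 male mice aged 12 months on Affymetrix expression arrays with 1 mouse per array. The genes are Arntl (also named Bmal1), Clock, Per1, Per2, Per3, Cry1, Cry2, Dbp, Nr1d1 and Nr1d2. They were chosen by name, and every probe set (a group of short probes that reads 1 transcript region) annotated with a single symbol among them was taken. All 10 genes were on the array, out of 18193 genes with a probe set of their own, and they are read by 23 of 45037 probe sets. Of these 23, a total of 20 passed a filter on low values (over 4 log2 on at least 4 arrays) and were tested, with at least 1 for each gene. Probe set 1457740_at of Arntl, 1417603_at of Per2 and 1421086_at of Per3 did not pass: their values on the 16 arrays lay from 2.15 to 3.45, from 2.04 to 2.29 and from 3.18 to 3.77 log2.

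The mice form 4 groups of 4. Control mice came from a 50% backcross of SAMP8 to CD-1 mice, were untreated and had no memory deficit. SAMP8 mice, a senescence-accelerated line with a memory deficit at this age, were untreated, or received by the intravenous route either an antisense oligonucleotide of random sequence (Random antisense) or one directed at the amyloid beta precursor protein (AβPP antisense). All 3 SAMP8 groups therefore share the line, and the line comparison uses untreated mice on both sides. One label of Random antisense 1 states no treatment while its title, source and description state the random oligonucleotide, and it was kept with Random antisense. The clock hour at which tissue was taken, the dose and the array batch are not given in the sources used here.

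The mammalian clock is a feedback loop of transcription factors. ARNTL and CLOCK form a dimer that binds E-box sequences and activates the Per and Cry genes, whose proteins return to the nucleus and repress the dimer. The dimer also activates Nr1d1 and Nr1d2, which encode the REV-ERB repressors of Arntl, and Dbp, an output transcription factor that binds D-box sequences. Many tissues, the hippocampus among them, run this loop locally, and levels of Dbp, Nr1d1 and the Per transcripts follow the time of day.

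Promoter sequences show where these sequence elements lie near the start of the genes described below. Windows of 250 bases before to 50 bases after a RefSeq transcript start (GRCm38.p6) were at hand for 9 of the 10 genes (not Per2), in 13 windows. The elements were searched on both strands as exact letters: the E-box CACGTG, the E-prime box CACGTT that differs from it in the last letter, the D-box as TTATGTAA or TTACGTAA, and the core AGGTCA of the ROR and REV-ERB element. Of all 32851 windows of this length, 7.15% held the E-box, 4.68% the E-prime box, 1.06% the D-box and 16.3% the AGGTCA core. Among the clock genes the E-box lay in the windows of Per1 and Cry1, the E-prime box in those of Cry1, Cry2 and Nr1d1, the D-box in that of Per3, and the AGGTCA core in those of Arntl, Clock, Per1 and Nr1d2. The stretches that hold an E-box, E-prime box or D-box are shown for 4 of these genes and for Ciart, a repressor of the dimer whose window has 3 E-boxes. Each runs 5′ to 3′ on the strand of the gene, with every element in capitals, also where it reads in reverse.
Per1, chr11:69098759-69098833, plus strand: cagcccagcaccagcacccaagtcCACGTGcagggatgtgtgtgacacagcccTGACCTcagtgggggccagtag
Cry1, chr10:85185090-85185154, minus strand: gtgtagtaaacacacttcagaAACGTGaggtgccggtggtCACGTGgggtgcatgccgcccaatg
Nr1d1, chr11:98775378-98775437, minus strand: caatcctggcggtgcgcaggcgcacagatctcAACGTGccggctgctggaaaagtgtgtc
Per3, chr4:151044801-151044890, minus strand: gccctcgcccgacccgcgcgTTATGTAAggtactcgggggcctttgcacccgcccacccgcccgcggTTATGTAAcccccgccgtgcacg
Ciart, chr3:95882249-95882368, minus strand: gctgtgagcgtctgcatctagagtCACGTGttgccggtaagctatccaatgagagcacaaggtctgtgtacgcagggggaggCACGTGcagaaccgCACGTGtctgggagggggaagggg
The E-box of Per1 begins 166 bases before the transcript start, that of Cry1 60 bases before it, and the pair of D-boxes of Per3 begin 205 and 158 bases before it. A match of letters describes the window and does not show that a factor binds there.

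Arrays that stood apart are given first, because several clock values rest on them. The median correlation of an array with the other 15 over all tested probe sets was 0.922 for Control 4 and 0.905 for AβPP antisense 4, against 0.958 to 0.989 for the others. On Control 4 the mean of 4 tested leukocyte markers, out of 6 listed, was 12.69 log2, against 6.99 to 8.79 on the other 15 arrays. On AβPP antisense 4 the 3′ minus 5′ difference of the beta-actin control probe sets, a measure of RNA integrity, was 3.89 log2, against 0.84 to 1.60 on the other 15. The 8 hippocampal neuron markers were all tested, with means of 7.99 to 9.89 log2, the lowest on AβPP antisense 2 (7.99), Control 4 (8.73) and AβPP antisense 4 (8.73). Choroid plexus markers (7 tested of 8) had means of 5.42 to 7.01 on AβPP antisense arrays and 7.71 to 9.28 elsewhere. Thalamus and habenula markers (6 of 6 tested) had means of 7.25 and 7.10 on AβPP antisense 1 and 3, and of 8.40 to 9.51 on the other 14 arrays. Leukocyte markers were 8.11 to 8.79 on AβPP antisense arrays and 6.99 to 7.99 on the other arrays except Control 4. The 2 tested blood cell markers of 5 had means of 5.39 to 9.13 on AβPP antisense arrays, 3.65 to 5.48 on SAMP8, 3.92 to 4.26 on Random antisense and 4.5 to 8.55 on Control arrays. Of 5 markers of the suprachiasmatic nucleus and hypothalamus, where the master clock lies, Vip alone was tested. In whole tissue, fewer cells of a type and less RNA per cell cannot be told apart.

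No clock gene passed the test in any comparison. In limma, with Benjamini-Hochberg adjustment over 23905 probe sets and a threshold of 0.05, 0 of the 20 clock probe sets were called for SAMP8 minus Control, AβPP minus Random antisense, Random antisense minus SAMP8, AβPP antisense minus SAMP8, or the moderated F test over the 4 groups. The shares of all tested probe sets called were 0.36%, 0.0837%, 0%, 0.289% and 0.849% in that order, so that a count of 0 in 20 is near the background. At an unadjusted p under 0.05 the clock counts were 2, 2, 0, 2 and, for F, 2, beside background shares of 4.38%, 12.3%, 1.12%, 14.7% and 14%. An unmoderated one-way layout also called 0 of 20 in each, with 1, 2, 0, 1 and 2 at an unadjusted p under 0.05. Groups that did not overlap were counted for 0, 1, 1 and 1 clock probe sets in the 4 comparisons, and for 4.81%, 7.58%, 8.1% and 7.96% of all probe sets. The median difference of the 20 clock probe sets was 0.11, 0.03, 0.03 and 0.08 log2, beside 0.04, 0.01, -0.01 and 0.00 over all probe sets tested.

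**Figure D1:**
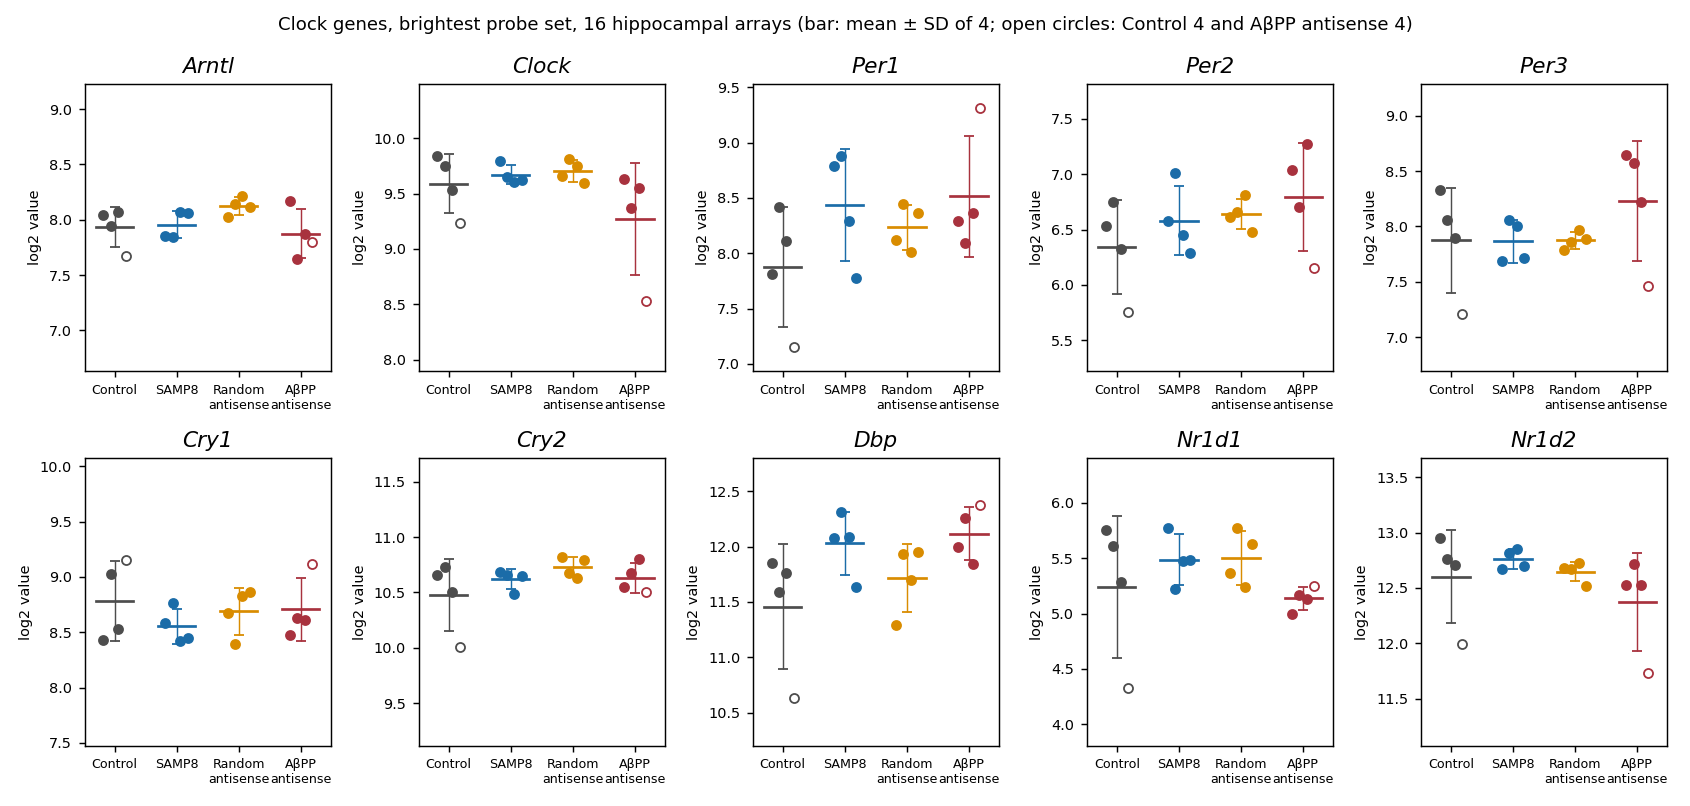
Log2 value (vertical axes, 1 panel per gene, all spanning the same range of log2) of the brightest tested probe set of each clock gene on 4 arrays in each of 4 groups, with the group mean and SD; open circles are Control 4 and AβPP antisense 4. Control 4 is the lowest Control array in every panel except that of Cry1, where it is the highest at 9.15 log2.

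Arntl and Clock form the positive arm of the loop. For Arntl (probe set 1425099_a_at), Control arrays read 8.04, 7.95, 8.07 and 7.67 log2, SAMP8 arrays 7.85, 7.85, 8.07 and 8.06, Random antisense arrays 8.02, 8.14, 8.21 and 8.11, and AβPP antisense arrays 8.17, 7.65, 7.87 and 7.80. All 4 groups overlapped, and the difference SAMP8 minus Control was 0.02 log2 (95% interval -0.25 to 0.30; limma adjusted p = 0.999). Without Control 4 the difference was -0.06. AβPP minus Random antisense was -0.25 ± 0.13 (SE; n = 4 and 4; limma adjusted p = 0.454). The pooled within-group SD of Arntl was 0.16 log2, at the 12.6th percentile of tested probe sets, against a median of 0.30 over all and 0.36 over the 20 clock probe sets.

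Clock, which encodes the partner of ARNTL, has 4 tested probe sets whose line differences lay between -0.01 and 0.08 log2, and between -0.19 and -0.04 without Control 4. For the brightest, 1418659_at, AβPP antisense arrays read 9.63, 9.37, 9.55 and 8.53, and Random antisense arrays 9.66, 9.81, 9.75 and 9.60. AβPP antisense 4 was far below the others, and the groups overlapped. The difference AβPP minus Random antisense was -0.43 ± 0.20 (SE; limma adjusted p = 0.406, unadjusted 0.0492) and -0.19 without AβPP antisense 4. The other 3 probe sets of Clock differed by -0.06 to 0.04 in this comparison, so the gene's probe sets did not move as one.

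Per1, Per2 and Per3 encode the repressor partners of the cryptochromes. For Per1 (1449851_at), Control arrays read 7.81, 8.42, 8.11 and 7.15 log2, SAMP8 arrays 8.79, 8.88, 8.30 and 7.78, Random antisense arrays 8.12, 8.44, 8.01 and 8.37, and AβPP antisense arrays 8.29, 8.09, 8.37 and 9.32. SAMP8 1 and 2 lay above every Control array, while SAMP8 4 lay below 3 of them. The line difference was 0.56 ± 0.31 (SE; limma adjusted p = 0.999, unadjusted 0.0923) and was 0.32 without Control 4. AβPP minus Random antisense was 0.28 ± 0.31, and 0.01 without AβPP antisense 4, the highest of the 16 arrays for Per1.

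The largest line difference among the clock probe sets was that of 1457350_at of Per2. Control arrays read 5.48, 5.61, 6.02 and 4.82 log2, SAMP8 arrays 6.86, 6.83, 6.35 and 5.87, Random antisense arrays 6.14, 5.89, 5.80 and 5.76, and AβPP antisense arrays 5.35, 6.01, 6.36 and 7.32. SAMP8 1, 2 and 3 lay above all Control arrays and SAMP8 4 below Control 3, so that the groups overlapped. The difference was 1.00 ± 0.35 (SE; limma adjusted p = 0.744, unadjusted 0.0134), and 0.78 without Control 4. The brightest Per2 probe set, 1417602_at, differed by 0.24 ± 0.25 in the same comparison and by 0.04 without Control 4.

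Per3 has 5 tested probe sets, and their line differences ran from -0.21 to 0.30 log2. Without Control 4 they ran from -0.50 to 0.05. For the brightest, 1421087_at, Control arrays read 8.33, 8.06, 7.89 and 7.21 log2, SAMP8 arrays 7.68, 8.06, 8.0 and 7.72, Random antisense arrays 7.79, 7.86, 7.97 and 7.89, and AβPP antisense arrays 8.65, 8.57, 8.22 and 7.46. AβPP antisense 1, 2 and 3 lay above all SAMP8 and Random antisense arrays, and AβPP antisense 4 lay below all 8 of them. AβPP antisense minus SAMP8 was 0.36 ± 0.25 (SE; limma adjusted p = 0.528).

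Without Control 4 and AβPP antisense 4, this Per3 difference was 0.61 ± 0.14 and passed the threshold (limma adjusted p = 0.0438), in a fit that called 1.68% of all tested probe sets, while that against Random antisense was 0.60 (adjusted p = 0.0669). In that fit of 14 arrays the other 4 Per3 probe sets differed from SAMP8 by 0.45 to 0.61, and none was called. With AβPP antisense 4 alone left out, the difference was again 0.61 but its limma adjusted p was 0.225. On all 16 arrays the 5 Per3 probe sets differed by 0.18 to 0.81 in AβPP antisense minus SAMP8, and 1441445_at, at 0.55 ± 0.24, had the smallest p (0.0421, adjusted 0.321 in limma). Random antisense and SAMP8 did not overlap for 1442243_at: the arrays read 5.85, 5.78, 5.76 and 6.16 against 5.43, 5.41, 4.60 and 5.24. Its limma adjusted p was 1, for a difference of 0.72 ± 0.43 (SE).

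Cry1 and Cry2 encode the cryptochromes, the main repressors of the dimer. Cry1 (1433733_a_at) read 8.43, 9.03, 8.53 and 9.15 log2 on Control arrays and 8.58, 8.77, 8.42 and 8.45 on SAMP8 arrays. Control 2 and 4 lay above all SAMP8 arrays, and Control 1 and 3 lay within their range. The line difference was -0.23 ± 0.19 (SE; limma adjusted p = 0.999), and -0.11 without Control 4. Cry2 (1426383_at) varied little within groups, with a pooled SD of 0.19 log2, at the 19.8th percentile. Its differences were 0.14 for SAMP8 minus Control and -0.10 for AβPP minus Random antisense, with 95% intervals of -0.16 to 0.45 and -0.40 to 0.21. The line difference of Cry2 was -0.01 without Control 4.

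Dbp, the output gene, had 1 of the 2 line differences with an unadjusted p under 0.05. Its brightest probe set, 1438211_s_at, read 11.85, 11.59, 11.76 and 10.63 log2 on Control arrays, 12.07, 12.31, 12.09 and 11.64 on SAMP8 arrays, 11.29, 11.93, 11.70 and 11.95 on Random antisense arrays, and 12.00, 12.26, 11.85 and 12.37 on AβPP antisense arrays. SAMP8 1, 2 and 3 exceeded every Control array, and Control 4 was lower than all other 15 arrays. The line difference was 0.57 ± 0.25 (SE; limma adjusted p = 0.999, unadjusted 0.0373) and 0.29 without Control 4. The other Dbp probe set, 1418174_at, differed by 0.54 ± 0.31, and by 0.17 without Control 4. AβPP minus Random antisense was 0.40 ± 0.25 for the first and -0.04 ± 0.31 for the second, which is smaller than its SE. Without AβPP antisense 4 the differences were 0.31 and 0.15. That array was the highest of its group for the first (12.37) and the lowest for the second (8.55).

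Nr1d1 and Nr1d2 encode the REV-ERB repressors. Nr1d1 (1426464_at) read 5.75, 5.61, 5.29 and 4.33 log2 on Control arrays, 5.77, 5.22, 5.48 and 5.48 on SAMP8 arrays, 5.36, 5.77, 5.24 and 5.63 on Random antisense arrays, and 5.0, 5.17, 5.13 and 5.25 on AβPP antisense arrays. AβPP antisense values lay at the lower edge of the other SAMP8 groups and overlapped each by 1 array. The difference from Random antisense was -0.37 ± 0.25 (SE; limma adjusted p = 0.578).

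For Nr1d2 the 2 probe sets gave different sizes. Probe set 1416959_at read 7.62, 7.35, 6.90 and 6.43 log2 on Control arrays, 6.98, 6.92, 7.21 and 7.05 on SAMP8 arrays, 6.99, 7.04, 6.87 and 6.81 on Random antisense arrays, and 4.76, 5.12, 6.76 and 2.14 on AβPP antisense arrays. Every AβPP antisense array lay below every Random antisense and SAMP8 array, by a wide margin for arrays 1, 2 and 4 and a narrow one for array 3. The difference was -2.23 ± 0.64 from Random antisense (limma adjusted p = 0.214) and -2.34 ± 0.64 from SAMP8 (adjusted p = 0.135). It was the clock probe set of smallest p in both comparisons, which use the same AβPP antisense arrays.

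Leaving out AβPP antisense 3, the array nearest the other groups, gave -2.92 from Random antisense (limma adjusted p = 0.00876) and -3.03 from SAMP8 (adjusted p = 0.00531), both past the threshold. The same fits called 3.75% and 5.38% of all tested probe sets, so that 1 of 20 clock probe sets is near that background. Without AβPP antisense 4 the difference from Random antisense was -1.38 (adjusted p = 0.186). The brighter probe set, 1416958_at, read 12.53, 12.72, 12.53 and 11.73 on AβPP antisense arrays and 12.68, 12.67, 12.72 and 12.52 on Random antisense arrays. These groups overlapped, with a difference of -0.27 ± 0.21 (SE; limma adjusted p = 0.635).

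An RNA quality measure moved with the lower Nr1d2 probe set. The beta-actin 3′ minus 5′ difference was 1.60, 1.60, 1.21 and 3.89 log2 on AβPP antisense arrays 1 to 4, and the Gapdh difference was -0.09, 0.02, -0.35 and 1.26, against -0.41 to -0.30 on the other 12 arrays. Arrays 1, 2 and 4 had both the raised control differences and the low 1416959_at values, while array 3 was within the range of the other groups for the control differences and below every Random antisense and SAMP8 array, but not every Control array, for 1416959_at. With the beta-actin difference as a covariate, the Nr1d2 difference from Random antisense was -1.11 (limma adjusted p = 0.342). The part of RNA quality in this result was not tested beyond that fit. Probe set 1450184_s_at of Tef, a paralogue of Dbp, had a similar order over these arrays, at 5.98, 5.69, 8.05 and 3.47, while the brightest Tef probe set, 1424175_at, differed by 0.16 ± 0.14 from Random antisense.

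**Figure D2:**
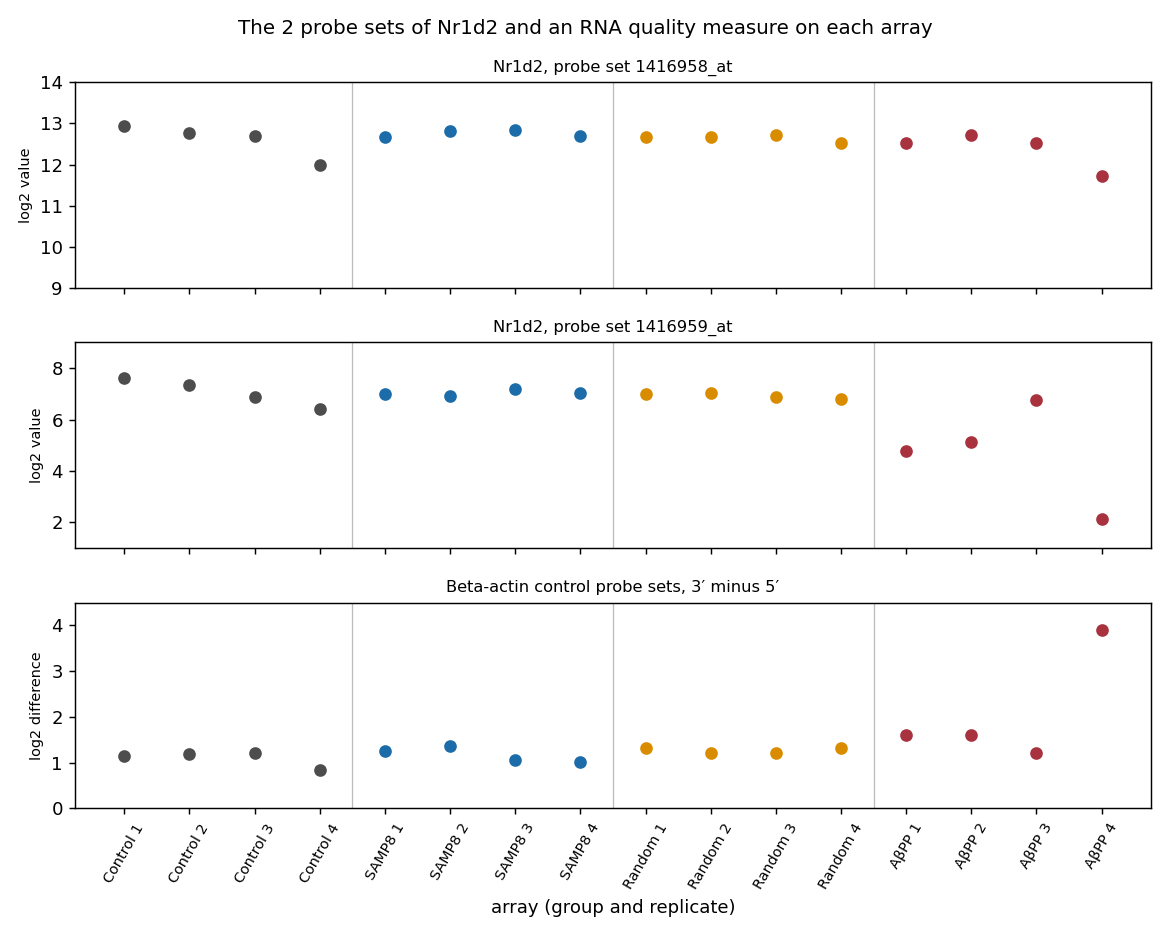
Both Nr1d2 probe sets (log2 value) and the beta-actin 3′ minus 5′ difference (log2) on each of the 16 arrays, in group order and coloured by group. Probe set 1416959_at is at 4.76, 5.12 and 2.14 on AβPP antisense 1, 2 and 4, where the beta-actin difference is 1.60, 1.60 and 3.89, and 1416958_at stays above 11.7 log2 on all arrays.

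Control 4 was the lowest of the Control arrays for 19 of the 20 clock probe sets, Cry1 being the exception. Over all tested probe sets Control 4 was lowest for 50%. Clock probe sets of 1 gene share their transcript, so these 20 are not independent. AβPP antisense 4 was the lowest of its group for 10 of 20, beside 35.7% of all probe sets. It was the highest for 6, among them Per1, Cry1, Dbp 1438211_s_at and Nr1d1. The share over all probe sets was not counted for the highest, so the 6 cannot be set against a background. Without Control 4, SAMP8 minus Control had 0 of 20 clock probe sets at an unadjusted p under 0.05 in limma, and their median was -0.06 log2. With AβPP antisense 4 left out as well, the count was 1, Per2 1457350_at, at 0.78 ± 0.26 (SE; limma adjusted p = 0.492). Control 4 is also the array with the high leukocyte markers, whose part in its low clock values was not tested.

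**Figure D3:**
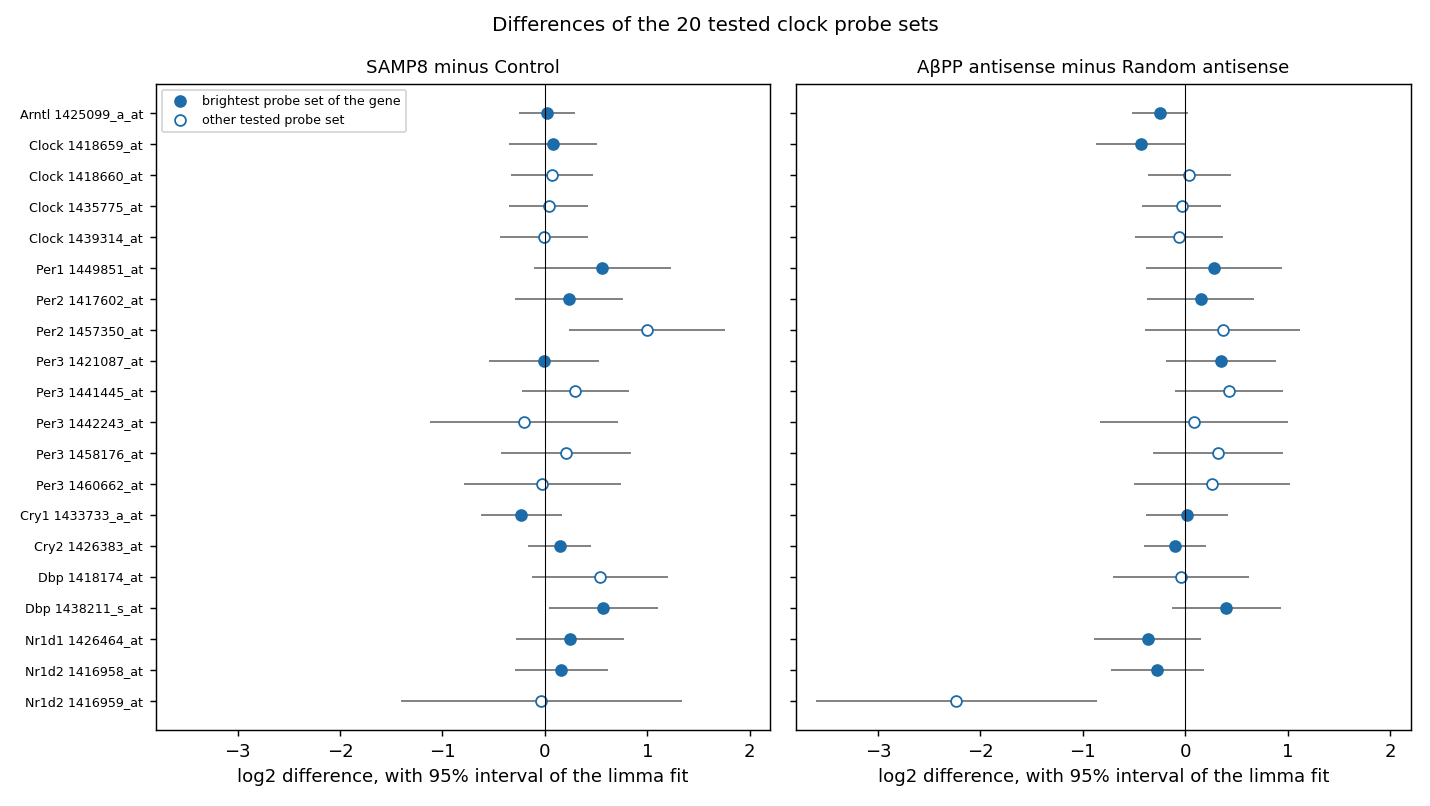
Log2 differences (horizontal axes) of the 20 tested clock probe sets for SAMP8 minus Control and for AβPP minus Random antisense, with 95% intervals of the limma fit; filled circles are the brightest probe set of a gene. The line differences run from -0.23 (Cry1) to 1.00 (Per2 1457350_at), and the antisense differences lie between -0.43 and 0.43 except for Nr1d2 1416959_at at -2.23.

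How the clock genes varied among mice of 1 group was described against Dbp, after removing each group's mean. Over 16 arrays Per1 had Pearson's r = 0.693 with Dbp (permutation p within groups 0.0093, adjusted 0.0837 over 9 relations) and Spearman's rho = 0.65 (permutation p 0.0166, adjusted 0.15). Nr1d1 had r = 0.719 (permutation p 0.0548, adjusted 0.247) and rho = 0.529 (permutation p 0.081, adjusted 0.365). None of the 9 passed after adjustment. With the beta-actin 3′ minus 5′ difference also removed, Per3 had r = 0.812 with Dbp (adjusted permutation p 0.0152), against 0.425 without that step. The beta-actin difference was 3.89 log2 on AβPP antisense 4 and 0.84 to 1.60 on the other arrays. On Control 4, Dbp and Per3 deviated from the group mean by -0.83 and -0.66. The r with the beta-actin difference removed was not computed without Control 4 alone. With the group means alone removed, the genes other than Per1 and Nr1d1 had r of 0.481 for Cry2, 0.425 for Per3, 0.377 for Nr1d2, 0.293 for Per2, 0.261 for Arntl, 0.1 for Clock and -0.224 for Cry1. Their adjusted permutation p-values ran from 0.483 to 0.721 for r and from 0.51 to 0.903 for rho. The median r with Dbp over all tested probe sets was 0.083, and the median absolute r was 0.353. Per1 and Nr1d1 lay at the 95.5th and 96.9th percentile of r over all tested probe sets.

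The arrays farthest from the Dbp median were Control 4 and Random antisense 1. Without them r was 0.603 for Per1, 0.154 for Nr1d1 and -0.495 for Arntl, and the other 6 ran from -0.441 (Clock) to 0.24 (Cry1), with Per3 at -0.101. The relation of Nr1d1 to Dbp thus rested on those arrays, while that of Per1 changed little. For the probe sets that follow, a different pair was left out: Control 4 and AβPP antisense 4. The second probe set of Dbp had r = 0.718 with the first, and 0.768 without that pair. Per3 1441445_at had r = 0.782 and 0.499, and Ciart r = 0.75 and 0.53. Others fell further without Control 4 and AβPP antisense 4: Clock 1418660_at from 0.709 to 0.121, Clock 1435775_at from 0.675 to 0.078, Hlf from 0.615 to 0.204 and Tef from 0.592 to -0.235.

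**Figure D4:**
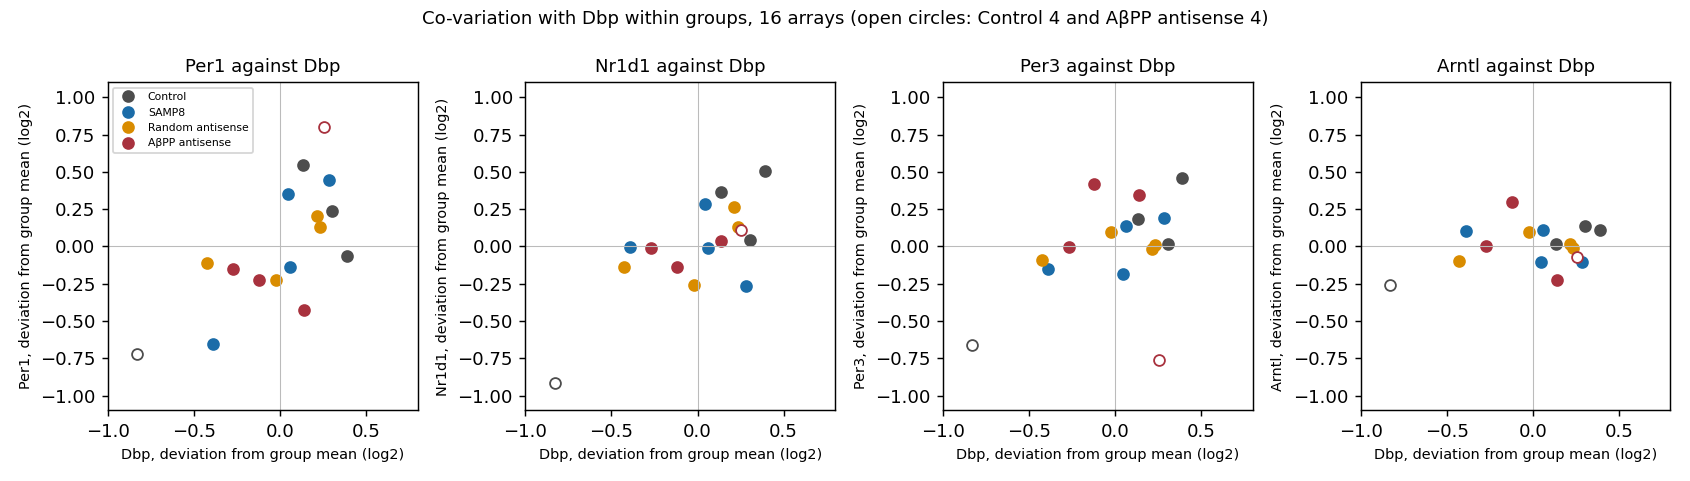
Deviation from the group mean (log2) of Per1, Nr1d1, Per3 and Arntl on the vertical axes against that of Dbp on the horizontal axes, 1 point per array in 4 group colours; open circles are Control 4 and AβPP antisense 4. Control 4 is at the lower left in all panels, and the spread of Per1 along Dbp (r = 0.693 on 16 arrays) is still seen without it and Random antisense 1 (r = 0.603).

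By the same measure the 5 genes outside the clock list whose values followed Dbp most closely over 16 arrays were Zfp438 (r = 0.922), Pm20d1 (0.915), Plcd1 (0.887), Itgb8 (0.883) and A930005H10Rik (0.879). Without Control 4 and AβPP antisense 4 their r was 0.686 to 0.821. Those most like Arntl were Katnal2 (0.944), Mllt3 (0.931), Tmem9b (0.929), Atp6v1e1 (0.919) and Ralgps2 (0.895), with r of 0.866 to 0.941 on the 14 arrays. These are the highest of 11465 genes, and all r values come from the same arrays, which differ in RNA quality.

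Per1 also responds to neuronal activity and to glucocorticoids, and both gene lists were set beside it. Of 9 tested immediate-early genes, which are induced by neuronal activity, 0 were called in limma. All 9 had a positive difference for SAMP8 minus Control, with a median of 1.00 log2, and all 9 a negative one for AβPP minus Random antisense, with a median of -0.71. The 10 glucocorticoid-responsive genes had medians of -0.16 and 0.21, with 0 called. Within groups, Per1 had r = 0.467 with the immediate-early mean (permutation p 0.138, adjusted 0.276; rho = 0.441, permutation p 0.143) and r = 0.349 with the glucocorticoid mean (permutation p 0.365; rho = 0.25, permutation p 0.44). Without the 2 arrays farthest from each list's median, r was 0.097 and 0.101.

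Further genes of the clock were taken from a list of 24, of which 19 had a tested probe set, 48 in all. None of the 48 was called in any comparison in limma. Counts at an unadjusted p under 0.05 were 2, 12, 0 and 16 for SAMP8 minus Control, AβPP minus Random antisense, Random antisense minus SAMP8 and AβPP antisense minus SAMP8, and 15 for F, beside the background shares of 4.38%, 12.3%, 1.12%, 14.7% and 14%. Groups did not overlap for 1, 4, 12 and 8 of the 48, beside 4.81%, 7.58%, 8.1% and 7.96% of all probe sets. Probe sets of 1 gene share a transcript and several genes have more than 1. Their median differences were 0.01, -0.20, 0.01 and -0.15 log2. Bhlhe41 was on the array but did not pass the filter.

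Rora, which encodes an activator at the element that the REV-ERB proteins repress, gave 3 of the 12 and 5 of the 16, and is named here after its values were seen. All 7 of its tested probe sets had a negative difference in both AβPP antisense comparisons. All 7 were also negative in Random antisense minus SAMP8, where 0 had an unadjusted p under 0.05 in limma. The smallest p in AβPP antisense minus SAMP8 was that of 1424035_at, with a difference of -1.11 ± 0.27 (SE; limma adjusted p = 0.103). It read 4.51, 5.52, 4.94 and 3.88 log2 on AβPP antisense arrays, lowest on array 4, which had the highest beta-actin 3′ minus 5′ difference. For 1424034_at that array was the highest of its group, at 10.27. The part of RNA quality in the Rora values was not tested. For the brightest, 1436326_at, AβPP antisense arrays read 10.55, 10.9, 9.52 and 10.44 log2 and SAMP8 arrays 11.22, 10.96, 10.95 and 11.35. These groups did not overlap, and AβPP antisense 3 was lowest. The difference was -0.77 ± 0.25 (SE; limma adjusted p = 0.185), and -0.49 without AβPP antisense 3. Rora is also on the list of thalamus and habenula markers, whose mean was lowest on AβPP antisense 1 and 3, and the part of tissue composition in its values was not tested.

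Ciart read 6.50, 6.91, 6.38 and 5.72 log2 on Control arrays and 7.48, 7.14, 7.16 and 6.73 on SAMP8 arrays. SAMP8 4 lay below Control 2, and the other SAMP8 arrays lay above all Control arrays. The difference was 0.75 ± 0.23 (SE; limma adjusted p = 0.548), and 0.53 without Control 4. Npas2, which encodes a substitute for CLOCK, read 8.05, 5.60, 6.87 and 5.62 on Control arrays and 5.13, 5.14, 4.95 and 4.82 on SAMP8 arrays.

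All Control values of Npas2 lay above all SAMP8 values, and the Control arrays spread widely. The difference was -1.52 ± 0.44 (SE; limma adjusted p = 0.416), and with array weights it was -1.92 and past the threshold (adjusted p = 0.00245). The fit with array weights called 1.23% of all tested probe sets in this comparison, against 0.36% in the fit without them. Bhlhe40, a repressor at E-boxes, differed by -0.30 ± 0.12 in AβPP minus Random antisense (SE; limma adjusted p = 0.337). The groups did not overlap, but only narrowly: the highest AβPP antisense value was 9.929 log2 and the lowest Random antisense value 9.932. AβPP antisense arrays read 9.93, 9.68, 9.77 and 9.37, lowest on array 4. The line differences of Hlf, Nfil3 and Usp2, by their brightest probe sets, were 0.21, -0.20 and 0.02.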

How the data were processed

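The authors deposited log2 values made with GCRMA, per the submitters' processing notes, with no version in those notes. No scanner file was used here, and the deposited normalization was kept. After 64 control probe sets were removed, 34945 probe sets had 1 gene symbol in the platform annotation, 932 several and 9160 none. Arrays were grouped by their titles. A one-way layout of 16 arrays was fitted in limma 3.58.1 (R 4.3.3; residual degrees of freedom 12, prior 2.63) on 23905 probe sets, with 4 contrasts, an F test and Benjamini-Hochberg adjustment. The fit and the correlation were tested on simulated data. Permutation p-values are two-sided, from 100000 shuffles within groups. All members are named, the tested probe set of highest mean stands for a gene, and named genes of the further clock list were fixed by name. Members and lists were chosen with earlier results of these data known. The lists of immediate-early and glucocorticoid genes were correlated with Per1 after values were seen. Alternatives were single arrays left out, other filters, array weights, a beta-actin covariate, a replicate block, an unmoderated layout and others. Each group has 4 arrays, which limits precision. The labels call them biological replicates from individual mice. Figures used Python 3.11.15 and matplotlib 3.10.9.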

Additional observations from a re-analysis of the deposited data

Results flagged for a closer look

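Of 80 groups of 4 arrays, 3 held an array far from the other 3 by Dixon's ratio of gap to range, above the 95% critical value, and chance flags about 1 in 20 groups. For Per3 1442243_at, Control 4 read 4.48 log2 with the nearest Control array at 5.66 (ratio 0.983). For Per3 1458176_at, Control 4 read 5.71 with the nearest at 6.85 (ratio 0.838). For Clock 1418660_at, SAMP8 2 read 8.63 with the nearest at 8.85 (ratio 0.84), a gap smaller than the SD of the Control arrays for that probe set (0.49).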

How the results depend on the processing

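The count of clock probe sets called stayed at 0 in all 28 alternatives for SAMP8 minus Control and for Random antisense minus SAMP8. It was 1 in AβPP minus Random antisense without AβPP antisense 3, 1 in AβPP antisense minus SAMP8 without AβPP antisense 3 and without both Control 4 and AβPP antisense 4, and 1 in the F test without AβPP antisense 3, so that the counts with 1 array left out ranged from 0 to 1. In those 4 fits 896, 1286, 401 and 963 of the 23905 probe sets were called (3.75%, 5.38%, 1.68% and 4.03%). These calls were Nr1d2 1416959_at and, without both arrays, Per3 1421087_at. The correlation of Per3 with Dbp was 0.812 (adjusted permutation p = 0.0152) with the beta-actin difference removed; the cause was not tested. Of 2448 refitted differences, 119 changed sign, in none of which the difference exceeded its SE in both fits.

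The counts over all probe sets depended more on the setting, from 37 to 295 for SAMP8 minus Control, 0 to 896 for AβPP minus Random antisense, 0 to 19 for Random antisense minus SAMP8, 5 to 1286 for AβPP antisense minus SAMP8 and 117 to 963 for F. With a replicate block, 0 clock probe sets were called, and the smallest limma adjusted p-values were 0.999, 0.217, 1 and 0.131 in the 4 comparisons and 0.162 for F. Same-numbered arrays had mean correlations of deviations of -0.005, -0.005, 0.101 and 0.034 for numbers 1 to 4, and 5 of 16 arrays correlated best with their own number, so the numbers were not taken to pair arrays.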
